A study of Homo sapiens with 42 samples.

Results

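The 96 genes described here are the nuclear genes of oxidative phosphorylation, taken from the 58869 genes counted in a study of 2 human acute myeloid leukaemia lines. They were chosen by symbol alone, as every row whose symbol starts with NDUFA, NDUFB, NDUFC, NDUFS, NDUFV, UQCR, COX4, COX5, COX6, COX7, COX8 or ATP5, together with SDHA, SDHB, SDHC and SDHD. Names ending in P and a number, which mark pseudogenes, and names with a hyphen were left out. The rule uses no expression value, but it was set with earlier results of these data known. Sorted by where their products sit, 37 encode subunits of complex I, 4 of complex II, 9 of complex III, 18 of complex IV (NDUFA4 and NDUFA4L2 are counted there) and 18 of ATP synthase. A further 8, NDUFAF1 to NDUFAF8, encode complex I assembly factors, COX7A2L encodes a factor that joins complexes III and IV into supercomplexes, and ATP5IF1 encodes the inhibitor of ATP synthase.

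Polyadenylated RNA was sequenced from OCI-AML3, a line that carries the NPM1c mutation, and from NOMO1, a line with a KMT2A rearrangement. Cells of each line were kept in DMSO for 3 or 6 days, in the menin inhibitor VTP-50469 at 100 nM for 3 or 6 days, in the MEK inhibitor selumetinib at 100 nM, or in both drugs for 3 or 6 days, which gives 14 groups of 3 libraries and 42 libraries. The series text gives 1 day for selumetinib alone while some titles carry day 3, so its length is uncertain, and how long selumetinib was present in the combination is not given in the sources used here. Whether replicate libraries derive from independent cultures is not stated in the labels, so the p-values measure the spread between these libraries, which may be technical. Each genotype is represented by a single line, so genotype and line cannot be told apart.

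In the respiratory chain, complex I takes electrons from NADH and complex II, succinate dehydrogenase, takes them from succinate. Both pass them through ubiquinone to complex III and on to complex IV, cytochrome c oxidase, which reduces oxygen. Complexes I, III and IV pump protons across the inner mitochondrial membrane, and ATP synthase uses their return to make ATP. Apart from complex II, each complex also contains subunits encoded by mitochondrial DNA, so its assembly draws on both genomes. Many acute myeloid leukaemia cells are known to rely on respiration for ATP. Menin inhibitors release menin from KMT2A protein complexes on chromatin, and MEK inhibitors block the kinase directly upstream of ERK.

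Promoters of nuclear respiratory genes are known for sites of NRF1 and of the ETS-family factor GABP. RefSeq promoters (GRCh38.p14) were matched for 75 of the 96 genes, and 4 motifs were searched on both strands in the 250 bases before the start. The NRF1-like motif (GCGC, any 2 bases, GCGC) was present in 16 of 75 (21.3%, against 7.58% of all 27305 promoters), the ETS motif CCGGAAG in 17 (22.7% against 8.82%), the E-box CACGTG in 7 (9.33% against 6.49%) and the YY1 motif AAGATGG in 4 (5.33% against 3.77%). In the table's full window of 300 bases, which runs past the start into the gene, AAGATGG was found in 16 (21.3% against 6.06%). The 16 and 17 members with an NRF1-like or an ETS motif had median log2 fold changes of 0.37 and 0.39 with VTP-50469 on day 6 in OCI-AML3, against 0.29 and 0.32 for the 56 and 55 tested members whose promoter lacked it. In NOMO1 with VTP-50469 on day 6 the medians were -0.49 and -0.40 with the motif, against -0.36 and -0.37 without it. These differences were not tested. A match is a description of the letters and shows no binding.

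The stretches below are the longest part of the promoter window that holds no annotated exon of a protein-coding transcript. Exons of non-coding transcripts were not masked, and motif matches on either strand are in capitals. UQCR11 (chr19:1605491-1605712, minus strand) is shown for its pair of ETS motifs and its E-box, NDUFB4 (chr3:120596086-120596308, plus strand) for its pair of NRF1-like motifs and COX5B (chr2:97645812-97646039, plus strand) for its ETS motif. ATP5MC1 (chr17:48892537-48892764, plus strand) and NDUFA8 (chr9:122159820-122159907, minus strand) are shown because several results below turn on these genes, and their stretches held none of the 4 motifs. No 2 of the printed matches overlap. An NRF1-like motif also lies in the 250 bases of UQCR11, but not wholly within its printed stretch.
UQCR11: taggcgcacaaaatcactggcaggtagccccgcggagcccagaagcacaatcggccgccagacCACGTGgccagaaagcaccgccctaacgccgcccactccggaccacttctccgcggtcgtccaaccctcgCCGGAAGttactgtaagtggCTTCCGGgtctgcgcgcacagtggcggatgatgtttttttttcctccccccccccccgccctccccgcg
NDUFB4: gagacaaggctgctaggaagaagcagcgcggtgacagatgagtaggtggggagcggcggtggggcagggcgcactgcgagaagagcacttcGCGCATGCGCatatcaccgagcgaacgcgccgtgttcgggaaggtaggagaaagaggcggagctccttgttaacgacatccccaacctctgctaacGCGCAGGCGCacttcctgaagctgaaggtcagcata
COX5B: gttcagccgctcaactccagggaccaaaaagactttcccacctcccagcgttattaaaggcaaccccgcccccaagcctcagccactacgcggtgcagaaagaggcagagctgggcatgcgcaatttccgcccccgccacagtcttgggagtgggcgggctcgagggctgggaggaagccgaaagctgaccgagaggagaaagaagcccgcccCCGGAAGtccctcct
ATP5MC1: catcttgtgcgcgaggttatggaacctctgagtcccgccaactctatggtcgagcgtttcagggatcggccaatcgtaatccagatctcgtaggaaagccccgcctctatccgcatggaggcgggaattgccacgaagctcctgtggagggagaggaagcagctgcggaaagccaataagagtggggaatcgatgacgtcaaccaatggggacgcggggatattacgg
NDUFA8: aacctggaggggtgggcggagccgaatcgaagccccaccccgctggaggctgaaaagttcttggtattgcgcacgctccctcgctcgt

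Library totals were 15561248 to 24262960 reads in OCI-AML3 and 15264862 to 29168628 in NOMO1. Among 10 myeloid marker genes, 8 in OCI-AML3 and 10 in NOMO1 reached 5 CPM (reads of a gene relative to the library total, scaled by TMM within a line) in at least 1 group, while the 6 erythroid markers stayed under 1 CPM in every group of both lines. Of 6 T and NK cell markers, 2 reached that level in OCI-AML3 (NCAM1 and NKG7) and 3 in NOMO1 (CD3D, CD3E and NKG7), with summed group levels of 139.5 to 263 and 119 to 252 CPM. Of 5 B cell markers, 0 and 2 did (CD79A and CD79B in NOMO1), with sums of 0.450 to 1.47 and 18.2 to 39.1 CPM, and of 7 epithelial and stromal markers, 2 (KRT8 and COL1A2) and 4 (EPCAM, KRT8, KRT18 and COL1A1), with sums of 1.05 to 70.3 and 85.5 to 424 CPM. The part of these markers in the members' values was not tested. Replicate 1 of NOMO1 VTP-50469 day 3 and replicate 2 of OCI-AML3 VTP-50469 day 3 stood apart from the other 2 libraries of their groups. The chi-square per gene against them was 67.6 and 73.0 in NOMO1 and 32.1 and 30.9 in OCI-AML3, while the remaining pair gave 6.42 in NOMO1 and 4.34 in OCI-AML3. For OCI-AML3 combination day 6, the pairs with replicate 2 gave 21.4 and 20.9 and the remaining pair 13.3. The NOMO1 DMSO day 3 libraries stood apart from DMSO day 6, with 51% of all genes called between them. The control of the NOMO1 treatments was DMSO day 6 throughout, also for groups of another day. DMSO day 3 was tried as an alternative within the line, but not for differences between the lines. In bulk RNA, fewer cells of a kind and less RNA per cell cannot be told apart.

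The filter on low counts was passed by 90 members in OCI-AML3 and 89 in NOMO1. COX4I2, known as a lung isoform, COX6A2, a heart and muscle isoform, and COX7B2 had 0 reads in all 42 libraries. COX7A1, another heart and muscle isoform, had 16 reads summed over the 21 OCI-AML3 libraries and 25 over the 21 NOMO1 libraries. COX6B2 had 54 and 20, and ATP5MGL had 3 and 15. COX8C passed only in OCI-AML3, with 131 reads in all against 21 in NOMO1. Apart from COX8C in OCI-AML3, the forms of these complex IV subunits that were tested were the ubiquitous COX4I1, COX6A1, COX6B1, COX7A2, COX7B and COX8A.

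Per kilobase of exon, ATP5F1B, the catalytic beta subunit of ATP synthase, had the highest level of all members in DMSO day 6, with 443 CPM per kb in OCI-AML3 and 408 in NOMO1. UQCRH, the hinge protein of complex III, came next in OCI-AML3 at 210.1 CPM per kb, and COX8A, a small complex IV subunit, in NOMO1 at 284 CPM per kb. Near the lower end stood 3 complex I genes. NDUFV2, a core iron-sulphur subunit, was counted at 0.145 CPM per kb in OCI-AML3 and 0.156 in NOMO1, NDUFA7 at 0.503 and 0.243, and NDUFA13 at 1.20 and 0.597. Exons of all 3 overlap another gene on the same strand (28% of the exon length of NDUFV2, 32% of NDUFA7 and 16% of NDUFA13), and the part of that overlap in the low counts was not tested. In all, 50 of the 96 members share exon sequence with another gene, and the library kit does not mark strand, so reads in such stretches cannot be assigned to 1 gene.

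Without drug, NOMO1 held more of this RNA than OCI-AML3. On day 6 in DMSO, 54 of 90 members were higher in NOMO1 and 9 lower (edgeR quasi-likelihood test, Benjamini-Hochberg adjusted p under 0.05 over all genes, as throughout), where 32.7% and 28.6% of all 18707 genes were called higher and lower. The median log2 difference was 0.47 over the members and 0.00 over all genes. With library totals in place of scaling factors the counts were 43 and 14, with the median of all genes at -0.25. In complex IV, 11 of 13 tested genes were higher and 1 lower.

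COX7A2, the ubiquitous form of subunit VIIa of complex IV, was measured at 82.5, 94.3 and 94.4 CPM in OCI-AML3 and at 249, 276 and 278 CPM in NOMO1 (levels scaled within each line), a log2 difference of 1.95 ± 0.09 (SE, n = 3 per line, edgeR adjusted p = 5.1e-23). COX5B, another complex IV subunit, was at 84.1 to 107 CPM and 236 to 244 CPM, a log2 difference of 1.69 ± 0.10. For both genes every NOMO1 library lay above every OCI-AML3 library, a separation that the naming rule asked for in COX5B. NDUFA5, an accessory subunit of complex I, went the other way, with 70.97 to 74.6 CPM in OCI-AML3 and 16.7 to 17.9 CPM in NOMO1 and a log2 difference of -1.69 ± 0.08. NDUFA4L2, the hypoxia-inducible relative of NDUFA4, was at 15.1 to 15.99 CPM in OCI-AML3 and at 1.13 to 1.73 CPM in NOMO1, while NDUFA4 itself was higher in NOMO1 by 1.39 ± 0.10 on the log2 scale.

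**Figure D1:**
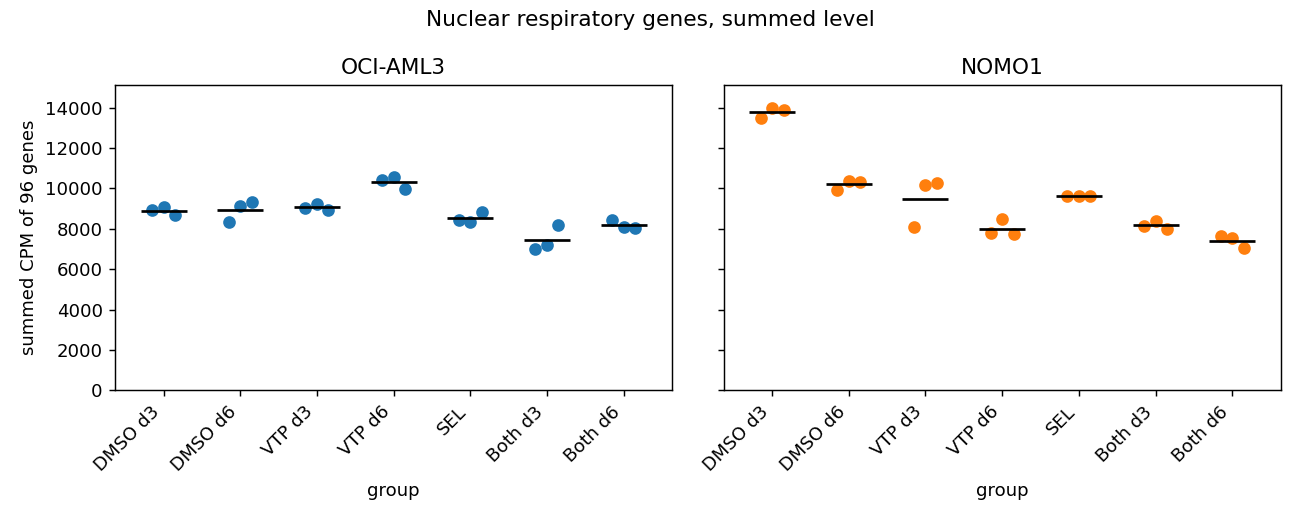
Summed CPM of the 96 members (y axis) in each library, by group (x axis), with OCI-AML3 on the left and NOMO1 on the right; points are libraries and bars are group means. The VTP-50469 day 6 libraries lie above DMSO day 6 in OCI-AML3 and below it in NOMO1, and the NOMO1 DMSO day 3 libraries lie above the other NOMO1 libraries.

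The menin inhibitor raised many of these genes in OCI-AML3 by day 6. On day 3, 2 of 90 members were higher (NDUFA8 and ATP5F1D) and 2 lower (UQCRH and COX7A2L), against 6.49% and 4.42% of all 16384 genes, and 1 and 1 without replicate 2 of the treated group. On day 6, 42 were higher and 6 lower, against 18.8% and 16% of all genes, and the median log2 fold change was 0.32 over the members and 0.01 over all genes. The summed CPM of the members was 8321 to 9313 in the DMSO libraries and 9987 to 10552 in the treated ones, which do not overlap. The counts became 26 higher and 3 lower without DMSO replicate 1, and the number lower was 2 without DMSO replicate 3, 3 without treated replicate 2 and 2 without treated replicate 3. Among the 42 tested members with no exon overlap, 17 were higher and 5 lower.

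By complex, 20 of 37 complex I subunits were higher and none lower, as were 8 of 13 complex IV genes (1 lower), 5 of 9 complex III genes (2 lower), 3 of 4 complex II genes (1 lower) and 5 of 17 ATP synthase subunits (none lower). Within complex I, 17 of 30 accessory subunits were higher, with a median log2 fold change of 0.42, and 3 of the 7 catalytic core subunits, with a median of 0.26. Of the 8 complex I assembly factors, 1 was higher (NDUFAF8) and 1 lower (NDUFAF4), with a median of -0.21. Over the 90 tested members, log2 fold change and exon length had a Spearman correlation of -0.35 in this comparison. Across all comparisons it ran from that value to 0.41, in the NOMO1 combination against VTP-50469 on day 3. The part of exon length in these splits and counts was not tested.

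NDUFA8, a complex I accessory subunit on the intermembrane space side, was counted at 63.2, 70.4 and 79.9 CPM in DMSO day 6 and at 285, 306 and 283 CPM with VTP-50469. Its log2 fold change was 2.03 ± 0.11 (SE, n = 3, edgeR adjusted p = 1.6e-13). On day 3 it was at 65.2 to 83.4 CPM in DMSO and 194 to 272 CPM with the drug (log2 fold change 1.59 ± 0.11). On both days every treated library lay above every DMSO library, a separation that the naming rule asked for in NDUFA8.

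Smaller rises on day 6 were spread over the complexes. NDUFB2, another complex I accessory subunit, rose from 44.1 to 60.8 CPM to 97.1 to 106 CPM (0.95 ± 0.12), with 28% of its exon length lying opposite BRAF. UQCRQ, a small subunit of complex III, rose from 53.7 to 74.9 CPM to 107 to 113 CPM (0.76 ± 0.12), with 21% of its exon length opposite GDF9. In these genes, as in the next ones, the groups did not overlap, which the naming rule asked for in genes outside its fixed list. COX6C, a small complex IV subunit, rose from 84.1 to 98.2 CPM to 139 to 141 CPM (0.62 ± 0.10). ATP5F1D, the delta subunit of the central stalk of ATP synthase, rose from 150.2 to 180.3 CPM to 241 to 259 CPM (0.56 ± 0.10).

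The 6 members that fell in OCI-AML3 on day 6 were COX7A2L, NDUFA4L2, NDUFAF4, SDHB, UQCRC2 and UQCRH. COX7A2L was counted at 152, 159 and 156 CPM in DMSO and at 84.8, 93.9 and 83.9 CPM with VTP-50469, a log2 fold change of -0.83 ± 0.10 (edgeR adjusted p = 2.5e-07), and the groups did not overlap. Its relative COX7A2 rose from 82.5 to 94.4 CPM to 134 to 138 CPM (0.59 ± 0.08). A second pair of relatives was split in the same comparison: NDUFA4L2 fell from 15.1 to 15.99 CPM to 7.39 to 8.93 CPM (-0.93 ± 0.24), while NDUFA4, the form built into complex IV in most cells, rose from 55.2 to 63.9 CPM to 85.02 to 89.1 CPM (0.55 ± 0.10).

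In NOMO1 the menin inhibitor lowered these genes. On day 6, 53 of 89 members were lower and 3 higher, against 25.1% and 23.7% of all 16561 genes, and the median log2 fold change was -0.37 over the members and -0.01 over all genes. The summed CPM was 9937 to 10387 in DMSO and 7716 to 8491 with the drug, which do not overlap. The lower calls covered 8 of 8 complex I assembly factors, 13 of 17 ATP synthase subunits, 19 of 37 complex I subunits, 7 of 12 complex IV genes, 3 of 9 complex III genes and 2 of 4 complex II genes, and ATP5IF1. On day 3, 14 were lower and 3 higher, against 14.4% and 12.7% of all genes. The day 3 counts were 1 lower and 2 higher in a fit on those 2 groups alone, 10 and 1 without DMSO replicate 2, 12 and 9 without treated replicate 1, and 62 and 7 against DMSO day 3.

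On day 6 in NOMO1, ATP5F1B was counted at 931, 963 and 949.8 CPM in DMSO and at 625, 656 and 623 CPM with VTP-50469, a log2 fold change of -0.58 ± 0.06 (SE, n = 3, edgeR adjusted p = 5.3e-09). ATP5F1A, the alpha subunit beside it in the catalytic head, fell from 809 to 855 CPM to 498 to 533 CPM (-0.70 ± 0.09). In complex I the fall took in core subunits: NDUFS3 went from 64.2 to 69.6 CPM to 33.9 to 42.04 CPM (-0.86 ± 0.10) and NDUFV1, which binds NADH, from 191 to 203 CPM to 111 to 121 CPM (-0.77 ± 0.10). In none of these did the groups overlap, a separation that the naming rule asked for in NDUFS3. COX7A2 fell from 249 to 278 CPM to 163 to 191 CPM (-0.62 ± 0.09).

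The members called higher in NOMO1 were COX7A2L, ATP5F1E and NDUFB1. Their number was 0 without DMSO replicate 1, 0 without treated replicate 2, 1 without DMSO replicate 2, 1 without DMSO replicate 3, 2 without treated replicate 1 or 3, and 0 with library totals. COX7A2L was at 85.97, 98.3 and 91.1 CPM in DMSO day 6 and at 115, 117 and 106 CPM with the drug (0.29 ± 0.10, edgeR adjusted p = 0.018). That call was lost without DMSO replicate 1 or 3 or treated replicate 1 or 2, with adjusted p-values of 0.076 to 0.13 in edgeR, and with library totals (0.0546). The choice of control turned its direction, since DMSO day 3 stood at 153 to 184 CPM and the log2 fold change against it was -0.61. ATP5F1B turned as well, with DMSO day 3 at 525 to 543 CPM and a log2 fold change of 0.26. For COX7A2 the value against DMSO day 3 was -0.06, which did not pass the test.

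**Figure D2:**
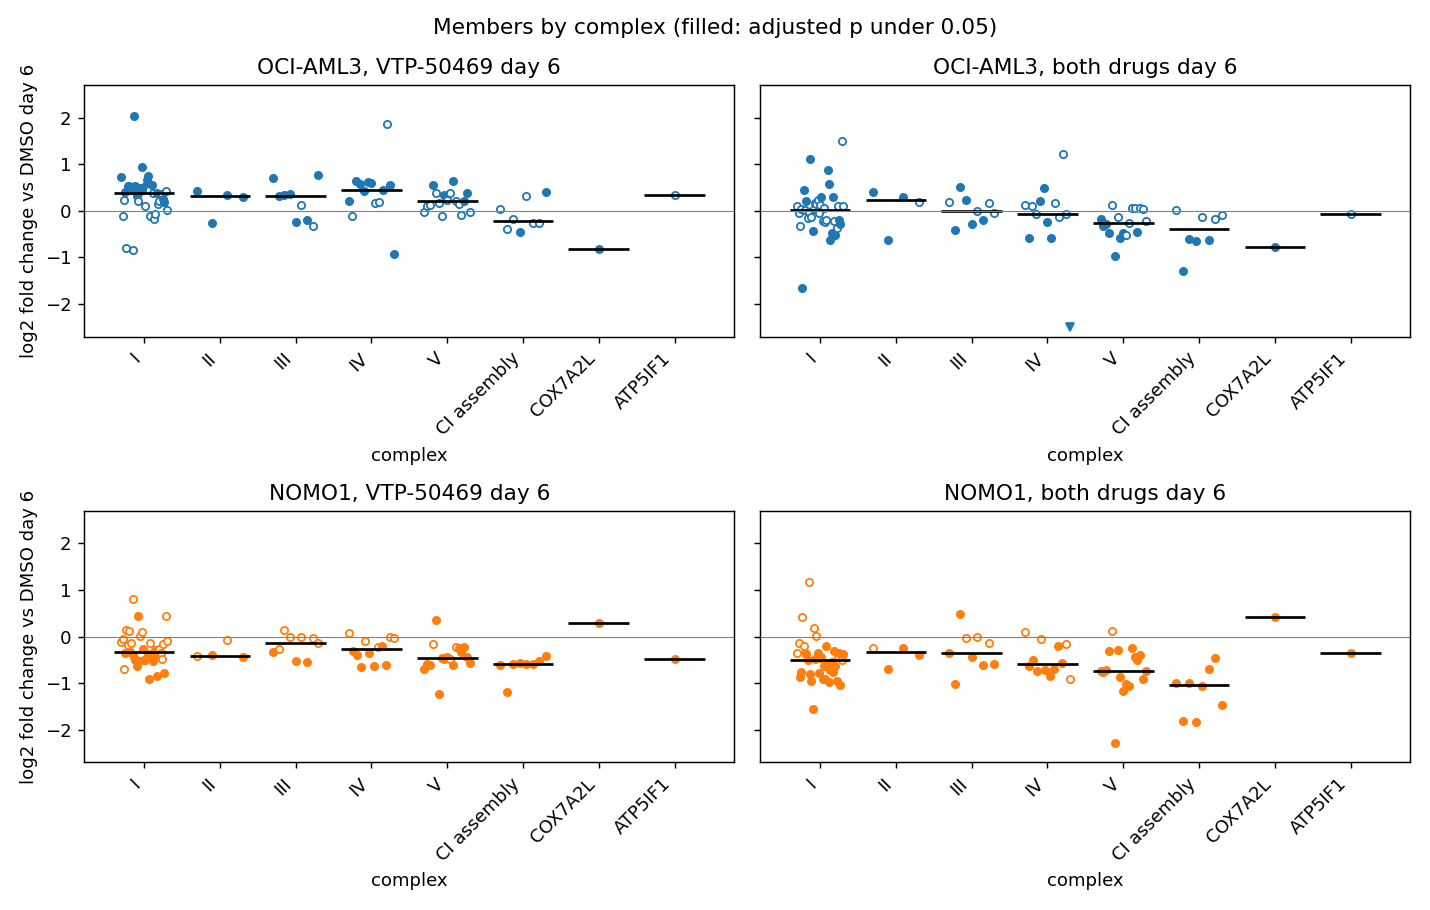
Log2 fold change of each tested member (y axis) by complex (x axis) for VTP-50469 day 6 and the combination day 6 against DMSO day 6 in both lines; filled points passed the test at an adjusted p of 0.05, open points did not, bars are medians, and values beyond the axis are drawn at its edge as triangles. Filled points are mostly above 0 for VTP-50469 in OCI-AML3 and mostly below 0 in both NOMO1 panels.

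The difference between the lines was tested directly. On day 6 the VTP-50469 effect was lower in NOMO1 than in OCI-AML3 for 58 of 90 members and higher for 1, COX7A2L, against 16.8% and 16.6% of all 18707 genes (33.4% in either direction). The median difference in log2 fold change was -0.59 over the members and 0.02 over all genes. For NDUFA8 the difference was -2.40 ± 0.16 (SE, n = 3 per group, edgeR adjusted p = 5e-16), for COX7A2 -1.15 ± 0.12, for COX5B -0.95 ± 0.14, for UQCRQ -0.83 ± 0.18 and for ATP5F1B -0.63 ± 0.08. For COX7A2L it was 1.19 ± 0.16. The line differences in the VTP-50469 and combination effects take DMSO day 6 as the control in both lines. DMSO day 3 was not tried for them. Against DMSO day 3, the NOMO1 effect of VTP-50469 on day 6 alone was 0.26 for ATP5F1B, -0.61 for COX7A2L and -0.06 for COX7A2.

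Among the 89 members tested in both lines, 25 were higher in OCI-AML3 and lower in NOMO1. They were 59.5% of the members called higher in OCI-AML3 and 47.2% of those called lower in NOMO1. Over all tested members, 59.6% were lower in NOMO1 and 46.7% higher in OCI-AML3, so both shares of the overlap were near these. No member was called higher in both. NDUFAF4, SDHB, UQCRC2 and UQCRH were lower in both lines. The difference between the lines did not pass the test for SDHB (-0.06 ± 0.14), NDUFAF4 (-0.06 ± 0.20) or UQCRC2 (-0.20 ± 0.11).

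**Figure D3:**
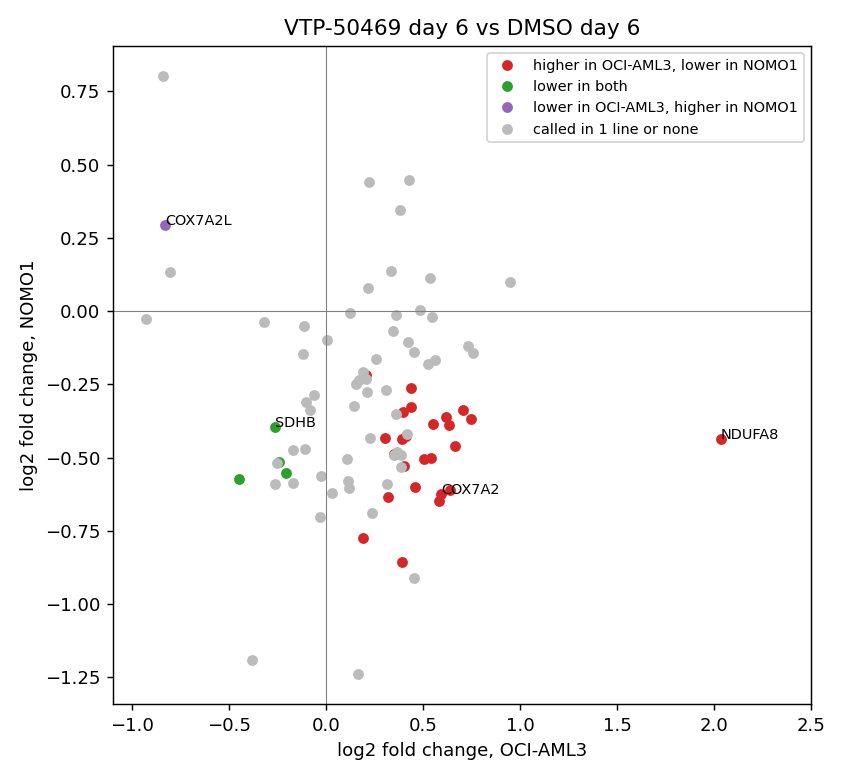
Log2 fold change with VTP-50469 on day 6 in OCI-AML3 (x axis) against NOMO1 (y axis) for the 89 members tested in both lines, coloured by the calls. The 25 members called higher in OCI-AML3 and lower in NOMO1 are at the lower right, and COX7A2L, called the reverse way, is at the upper left.

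Selumetinib alone moved few members. In OCI-AML3, 13 of 90 were lower and 2 higher, against 15.6% and 11.7% of all genes, and in NOMO1 16 of 89 were lower and 3 higher, against 19% and 13.1%, so the share lower was near the background in both lines. A fit on the compared groups alone gave 25 lower and 6 higher in OCI-AML3 and 25 and 10 in NOMO1. Without DMSO day 3 replicate 2 the OCI-AML3 number lower was 8, and against DMSO day 3 the NOMO1 counts were 67 lower and 8 higher.

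Complex I assembly factors made up 3 of the lower calls in OCI-AML3 and 5 in NOMO1. NDUFAF2 fell from 26.9 to 30.2 CPM to 16.8 to 17.6 CPM in OCI-AML3 (-0.72 ± 0.16) and from 19.6 to 22.5 CPM to 11.8 to 13.1 CPM in NOMO1 (-0.75 ± 0.16). SDHB, the iron-sulphur subunit of complex II, was also lower in both, at -0.43 ± 0.10 and -0.45 ± 0.08. UQCRB, a ubiquinone-binding subunit of complex III, was higher in both, at 0.23 ± 0.08 and 0.29 ± 0.07. In OCI-AML3 its call (edgeR adjusted p = 0.048) was lost without DMSO replicate 1 or 3 or selumetinib replicate 2 or 3, with adjusted p-values of 0.15 to 0.19, and in NOMO1 its value against DMSO day 3 was -0.82.

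With both drugs, lower calls outnumbered higher ones in both lines. In OCI-AML3, 40 of 90 members were lower and 5 higher on day 3, against 25.8% and 22.3% of all genes, with a median of -0.25. On day 6, 28 were lower and 13 higher, against 26.5% and 23.1%, with a median of -0.07. The number higher was 7 on day 6 without DMSO replicate 1, and on day 3 it was 2 without DMSO replicate 1, 3 without DMSO replicate 3 and 2 without treated replicate 3. In NOMO1, 56 of 89 were lower and 1 higher on day 3 (UQCRB), against 24.4% and 20.9%, with a median of -0.41. On day 6, 69 were lower and 2 higher (UQCRB and COX7A2L), against 28.2% and 27.3%, with a median of -0.54.

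The summed CPM on day 6 was 8036 to 8447 in OCI-AML3, which overlaps the DMSO range, and 7050.2 to 7661 in NOMO1, below every DMSO library. The effect on day 6 was lower in NOMO1 than in OCI-AML3 for 44 of 90 members and higher for 3, against 16.3% and 18.6% of all genes (34.9% in either direction). The members called lower on day 6 in both lines numbered 25, which is 89.3% of the OCI-AML3 list and 36.2% of the NOMO1 list. Over all tested members, 77.5% were lower in NOMO1 and 31.1% in OCI-AML3.

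By complex on day 6, NOMO1 had lower calls in 28 of 37 complex I subunits, 3 of 4 of complex II, 5 of 9 of complex III, 8 of 12 of complex IV, 16 of 17 of ATP synthase and 8 of 8 assembly factors. OCI-AML3 had 7 lower and 7 higher in complex I, 1 and 2 in complex II, 3 and 2 in complex III and 4 and 2 in complex IV. Its ATP synthase genes had 8 lower and 0 higher calls and its assembly factors 4 and 0.

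NDUFAB1, the acyl carrier protein that is also part of complex I, was counted in NOMO1 at 79.1, 83.5 and 86.2 CPM in DMSO and at 29.3, 27.4 and 27.4 CPM with both drugs (-1.57 ± 0.11, SE, n = 3, edgeR adjusted p = 2.5e-12). In OCI-AML3 it fell from 65.02 to 73.7 CPM to 45.3 to 61.8 CPM (-0.44 ± 0.10). COX5A, a complex IV subunit on the matrix side, was lower in both lines, at -0.63 ± 0.07 in NOMO1 and -0.58 ± 0.08 in OCI-AML3. NDUFA8 was still higher than in DMSO in OCI-AML3, at 145 to 161 CPM (1.11 ± 0.11), and was lower in NOMO1 (-0.80 ± 0.12). UQCRB rose in both lines, from 203 to 232 CPM to 283 to 340.2 CPM in OCI-AML3 (0.51 ± 0.09) and from 282 to 315 CPM to 415 to 421 CPM in NOMO1 (0.48 ± 0.07), but in NOMO1 DMSO day 3 it stood at 627 to 667 CPM and the log2 fold change against that control was -0.63.

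Under both drugs some further members parted the lines and others were lower in both. NDUFC1, a small accessory subunit of complex I, was at 20.1, 22.1 and 22.5 CPM in OCI-AML3 DMSO day 6 and at 46.3, 41.2 and 30.3 CPM with both drugs (0.86 ± 0.14), and at 29.2, 28.5 and 29.4 CPM and 19.6, 19.9 and 18.01 CPM in NOMO1 (-0.60 ± 0.11), with a difference between the lines of -1.40 ± 0.18. Of its exon length, 19% overlaps MGARP on the same strand. NDUFS1, the largest core subunit of complex I, was lower in both lines, at -0.62 ± 0.08 in OCI-AML3 and -0.71 ± 0.09 in NOMO1, where its value against DMSO day 3 was -0.14 and did not pass the test. UQCR11, a small subunit of complex III, was lower in both as well, at -0.40 ± 0.12 and -1.01 ± 0.22. In ATP synthase, ATP5PF, coupling factor 6 of the peripheral stalk, fell in NOMO1 from 83.5 to 85.6 CPM to 43.9 to 46.6 CPM (-0.91 ± 0.10) and did not pass the test in OCI-AML3 (0.04 ± 0.08), with a difference between the lines of -0.90 ± 0.13.

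Setting the combination against VTP-50469 alone on the same day shows what adding selumetinib changed; these comparisons share libraries with the ones above. In OCI-AML3, 44 of 90 members were lower and 2 higher on day 3, against 24% and 18.2% of all genes, and 51 were lower and none higher on day 6, against 24.6% and 16.7%, with medians of -0.30 and -0.37. In NOMO1, 51 of 89 were lower and 1 higher on day 3, against 19.2% and 15.9%, and 30 were lower and 2 higher on day 6, against 15.2% and 12.4%, with medians of -0.34 and -0.19. On day 6 in OCI-AML3, DESeq2 called 3 members higher where edgeR called 0, and 3 members had a value above 0 with an unadjusted p under 0.05 in edgeR. Without the day 3 VTP-50469 library that stood apart, the day 3 number lower was 41 in OCI-AML3 and 67 in NOMO1. The NOMO1 day 6 number lower was 17 without VTP-50469 replicate 2 and 17 without combination replicate 3. The added effect on day 6 differed between the lines for 13 members, 9 of 90 with a higher and 4 with a lower value in NOMO1, against 11.4% and 9.18% of all genes (20.6% in either direction), so the share of members was below the background. The number higher was 14 without NOMO1 combination replicate 3, and the number lower was 2 without that library, without NOMO1 VTP-50469 replicate 2, without OCI-AML3 VTP-50469 replicate 2 or 3 or without OCI-AML3 combination replicate 1.

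Some genes raised by VTP-50469 on day 6 in OCI-AML3 were lower with the addition on that day. Both comparisons use the same VTP-50469 libraries, which favours such an overlap, and 56.7% of all tested members were lower here. Whether the rise and the fall are linked was not tested. NDUFA8 fell from 285, 306 and 283 CPM to 161, 145 and 155 CPM (-0.92 ± 0.10). ATP5F1D fell from 241 to 259 CPM to 111 to 138 CPM (-1.03 ± 0.10) and COX7A2 from 134 to 138 CPM to 67.3 to 81.8 CPM (-0.84 ± 0.08). COX7A2L, already low with VTP-50469, did not pass the test (0.06 ± 0.10).

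**Figure D4:**
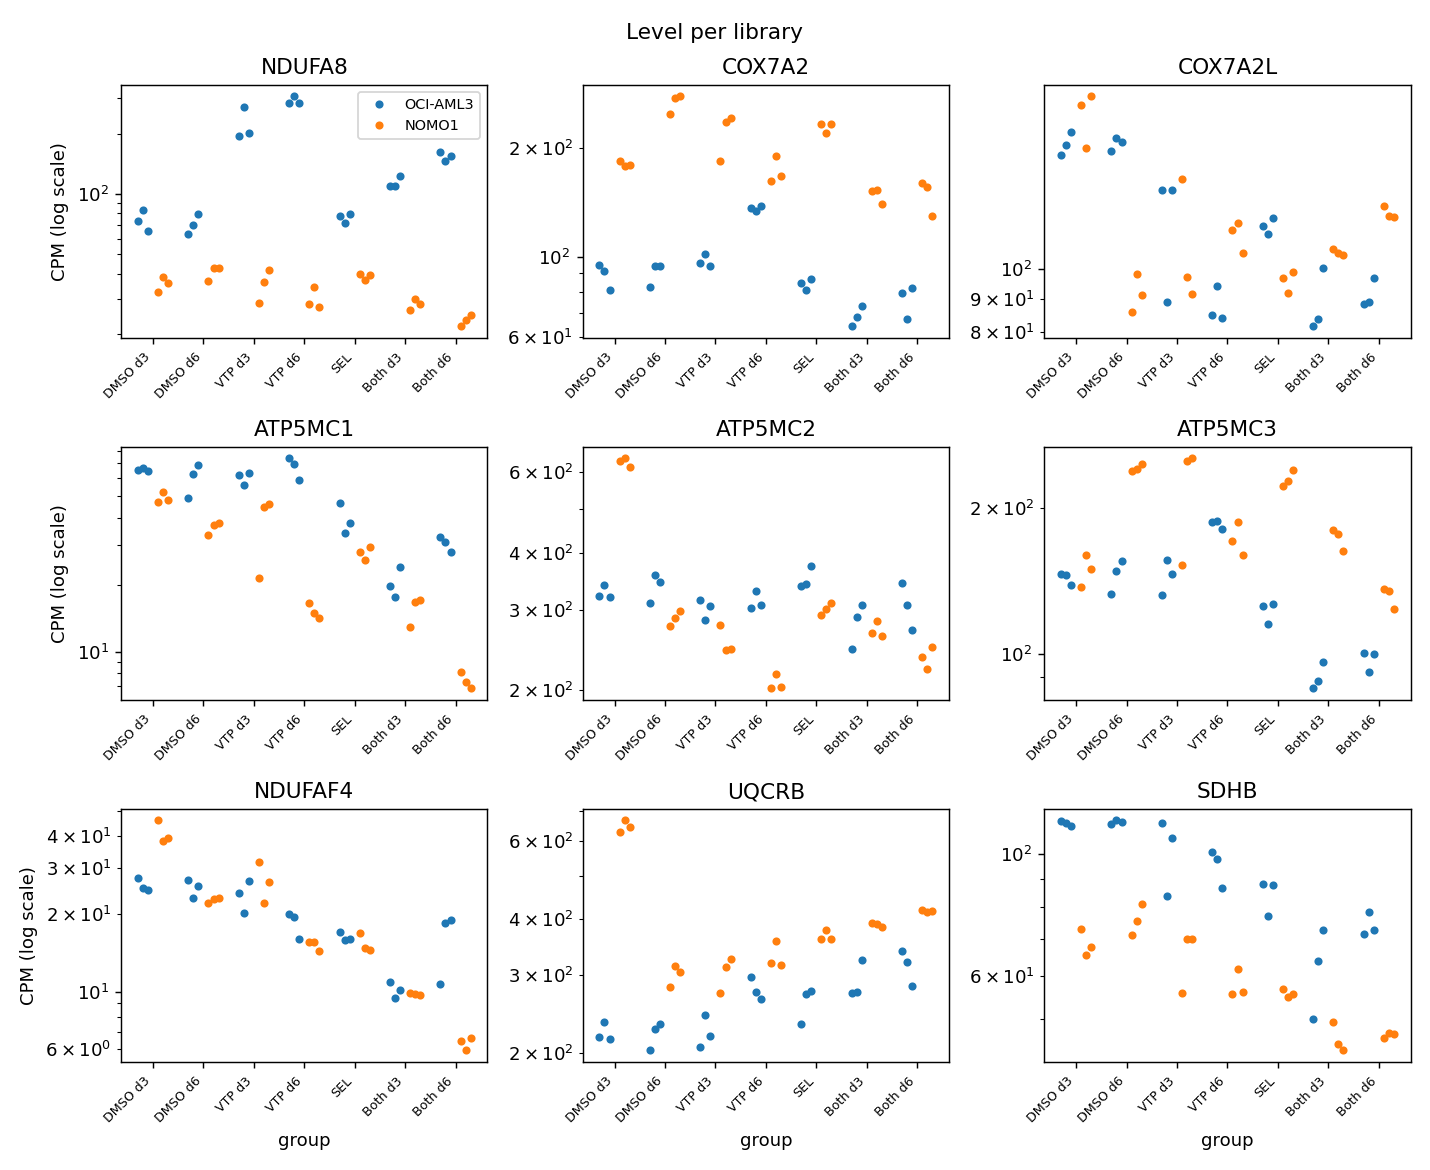
CPM on a log axis (y) in each of the 3 libraries of every group (x) for 9 members, OCI-AML3 in blue and NOMO1 in orange, each scaled within its line. NDUFA8 is highest in the OCI-AML3 VTP-50469 libraries, COX7A2 is higher and COX7A2L lower with VTP-50469 on day 6 in OCI-AML3, and NOMO1 ATP5MC1 is lowest with both drugs on day 6.

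The 3 genes of the c-ring of ATP synthase, ATP5MC1, ATP5MC2 and ATP5MC3, encode the same mature subunit and differ in their targeting peptides. In NOMO1 on day 6, ATP5MC1 was counted at 33.6, 36.9 and 37.9 CPM in DMSO, at 16.6, 14.98 and 14.2 CPM with VTP-50469 and at 8.12, 7.28 and 6.85 CPM with both drugs. The log2 fold change of the combination was -2.28 ± 0.20 (SE, n = 3, edgeR adjusted p = 1.9e-09). ATP5MC3 fell from 239 to 247 CPM to 124 to 136 CPM (-0.88 ± 0.12) and ATP5MC2 from 276 to 297 CPM to 223 to 249 CPM (-0.28 ± 0.06). In OCI-AML3 on day 3 the order of the values was the same, with -1.68 ± 0.13 for ATP5MC1 (64.5 to 67.1 CPM to 17.7 to 23.9 CPM), -0.68 ± 0.07 for ATP5MC3 and -0.22 ± 0.08 for ATP5MC2. The call of ATP5MC2 (edgeR adjusted p = 0.029) was lost without DMSO replicate 2 or treated replicate 1, with adjusted p-values of 0.095 to 0.2, and with library totals (0.325) or DESeq2 (0.0516), and against NOMO1 DMSO day 3 the call of ATP5MC3 in NOMO1 was lost (-0.18). Selumetinib alone lowered ATP5MC1 in OCI-AML3 to 34.02 to 46.5 CPM (-0.73 ± 0.12), while in NOMO1 it did not pass the test (-0.38 ± 0.18). On day 6 of the combination in OCI-AML3, ATP5MC1 was at 28.1 to 32.8 CPM, against 48.8 to 69.1 CPM in DMSO day 6. ATP5MC3 was at 91.9 to 101 CPM against 133 to 156 CPM, and both were called lower. ATP5MC2 was at 270 to 343 CPM against 311 to 357 CPM and did not pass the test. The differences between the 3 genes were not tested.

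The assembly factors of complex I act on the growing enzyme and are absent from the finished one. Their median log2 fold change with both drugs was -0.91 on day 3 and -1.03 on day 6 in NOMO1, and -0.63 and -0.39 in OCI-AML3. NDUFAF4 was counted in NOMO1 at 21.9, 22.7 and 23.05 CPM in DMSO day 6 and at 6.44, 5.93 and 6.60 CPM with both drugs (-1.84 ± 0.13, edgeR adjusted p = 1.1e-12), and in OCI-AML3 it fell from 23.05 to 26.9 CPM to 10.7 to 18.9 CPM (-0.65 ± 0.16). NDUFAF2, a relative of the accessory subunit NDUFA12 that acts late in assembly, fell from 19.6 to 22.5 CPM to 4.40 to 7.11 CPM in NOMO1 (-1.80 ± 0.17) and from 25.1 to 29.6 CPM to 9.35 to 14.2 CPM in OCI-AML3 (-1.30 ± 0.17). NDUFAF8 split the lines, falling in NOMO1 from 24.2 to 33.4 CPM to 9.60 to 10.8 CPM (-1.47 ± 0.14) while in OCI-AML3 it did not pass the test (-0.09 ± 0.15), with a difference between the lines of -1.32 ± 0.22.

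Complex II is encoded in the nucleus alone, and its 4 genes did not move as one. In OCI-AML3 with VTP-50469 on day 6, SDHC (0.35 ± 0.07), SDHA (0.42 ± 0.12) and SDHD (0.30 ± 0.10) were higher and SDHB (-0.26 ± 0.10, edgeR adjusted p = 0.049) lower. The call of SDHB was lost whichever library was left out (edgeR adjusted p from 0.051 to 0.22), with library totals (0.0562) and against DMSO day 3 (0.0535), that of SDHD without DMSO replicate 1 or 3 or treated replicate 2 (0.063 to 0.094), and that of SDHA without DMSO replicate 1 (0.072) and against DMSO day 3 (0.0612). With both drugs SDHB was the member that fell in both lines: it was at 113, 115 and 115 CPM in DMSO and 71.3, 78.4 and 72.7 CPM in OCI-AML3 (-0.63 ± 0.11), and at 71.1, 75.6 and 81.2 CPM and 46.2, 47.1 and 46.9 CPM in NOMO1 (-0.70 ± 0.08). In neither line did the groups overlap. SDHA has near-identical pseudogene copies in the genome, so its counts are uncertain.

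NDUFA4L2 had its largest change at low levels. In OCI-AML3 it was counted at 15.99, 15.1 and 15.2 CPM in DMSO day 6 and at 1.24, 0.321 and 0.190 CPM with both drugs (-4.72 ± 0.34, edgeR adjusted p = 1.6e-12). On day 3 of the combination it was at 5.76 to 8.43 CPM, against 14.6 to 15.000000 CPM in DMSO.

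The DMSO libraries of NOMO1 differed between the days, and time cannot be told apart here from any other difference between those 2 sets of libraries. DMSO day 6 had 62 of 89 members lower and 9 higher than DMSO day 3, against 22.3% and 28.8% of all genes, with a median of -0.67 over the members and 0.03 over all genes. The summed CPM was 13507 to 14004 on day 3 and 9937 to 10387 on day 6. With library totals in place of scaling factors, which put the median of all genes at 0.37, the counts were 44 lower and 16 higher. ATP5MC2 fell from 618 to 644 CPM to 276 to 297 CPM (-1.14 ± 0.07) and UQCRB from 627 to 667 CPM to 282 to 315 CPM (-1.11 ± 0.07). The 9 that rose included ATP5F1B (0.84 ± 0.06), SDHC (0.88 ± 0.10) and COX7A2 (0.57 ± 0.09). In OCI-AML3, edgeR and DESeq2 each called 0 members between the days, edgeR called 0% of all genes, and 0 members had an unadjusted p under 0.05 in edgeR.

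The 13 subunits encoded by mitochondrial DNA were counted beside the nuclear ones. With VTP-50469 on day 6 in OCI-AML3, 0 of 13 were called higher and 0 lower, against 18.8% and 16% of all genes. Their median log2 fold change was 0.32, where the nuclear members had a median of 0.32. In OCI-AML3 on day 6 with both drugs, 13 of 13 were higher, with a median log2 fold change of 1.65, where 28 nuclear genes were lower and 13 higher, near the 26.5% and below the 23.1% of all genes. The ratio of their summed CPM to that of the nuclear members was 3.01 ± 0.680 in DMSO day 6 and 10.001 ± 2.12 with both drugs (SD, n = 3). With both drugs it was 12.4 in replicate 2, and 8.55 and 9.02 in replicates 1 and 3. In NOMO1, against DMSO day 6, 13 mitochondrially encoded genes were higher on day 3 of the combination (median 1.06) and 13 with selumetinib alone (median 1.05). Over all genes 20.9% and 13.1% were higher there. The summed CPM of the 13 was 40161.3 to 48510.5 with the combination and 36627.7 to 46995.2 with selumetinib. These ranges lie above DMSO day 6 (18614.8 to 24872.4) and below DMSO day 3 (145049 to 152477), so the direction turned with the control. On day 6 of the combination 1 was higher and none lower (median -0.04), while 69 nuclear genes were lower and 2 higher. Over all genes 27.3% were higher and 28.2% lower in that comparison. In NOMO1 DMSO 13 of 13 were lower on day 6 than on day 3 (median -2.79), against 22.3% of all genes, the direction of most nuclear members. The ratio there was 10.7 ± 0.243 on day 3 and 2.115 ± 0.360 on day 6. Genes detected numbered 16742 to 17438 in OCI-AML3 with both drugs on day 6, against at least 18197 in its other libraries. For NOMO1 DMSO day 3 they numbered 17749 to 18672, against at least 19315 in the other NOMO1 libraries. Mitochondrial reads made up 10.8% to 14.9% and 17.6% to 18.0% of these libraries. The part of library quality in the ratios and calls was not tested.

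**Figure D5:**
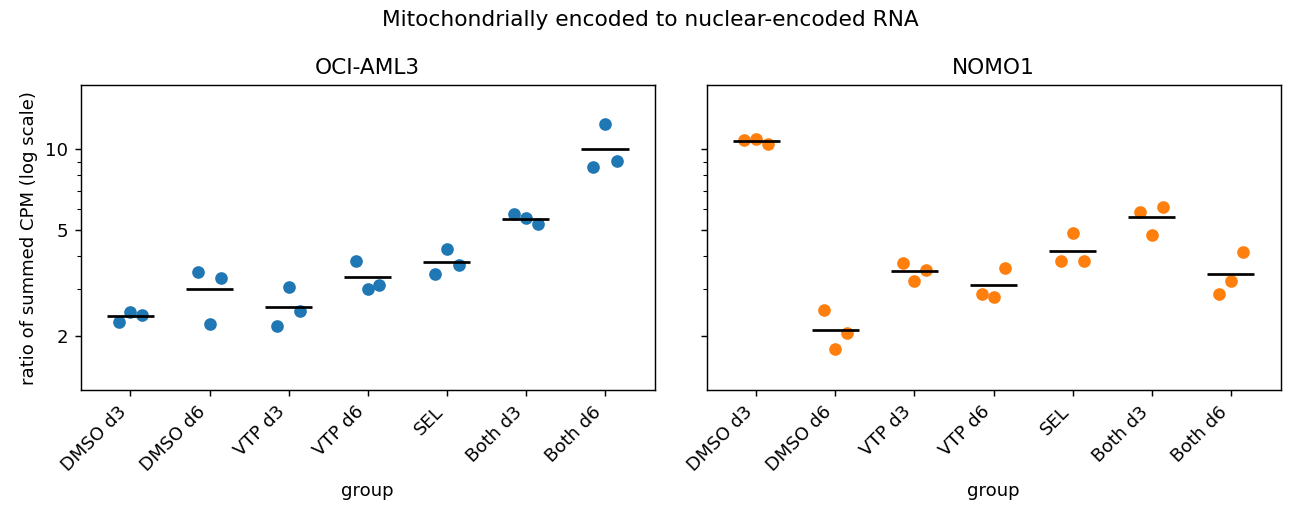
Ratio of the summed CPM of the 13 mitochondrially encoded subunits to that of the 96 nuclear members (y axis, log scale) in each library, by group (x axis); points are libraries and bars are group means. OCI-AML3 with both drugs on day 6 and NOMO1 in DMSO on day 3 have the highest ratios of their lines.

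Other mitochondrial gene lists were counted as well. Over all genes, 28.2% were lower and 27.3% higher in NOMO1 with both drugs on day 6, and 26.5% and 23.1% in OCI-AML3. In NOMO1 with both drugs on day 6, 71 of 76 mitochondrial ribosomal protein genes were lower and 1 higher (median -0.89), 14 of 16 tricarboxylic acid cycle genes were lower and none higher (median -0.74), 28 of 40 other assembly factors were lower and 2 higher, 9 of 14 genes of ubiquinone, cytochrome c and other electron carriers were lower and 1 higher, and 8 of 14 regulators of respiratory gene expression were lower and 2 higher. In OCI-AML3 with both drugs on day 6, 46 of 77 mitochondrial ribosomal protein genes were lower and 2 higher, 12 of 16 cycle genes lower and 0 higher, 20 of 40 other assembly factors lower and 3 higher, 7 of 14 carrier genes lower and 2 higher, and 9 of 13 regulators lower and 1 higher. With VTP-50469 alone on day 6 in OCI-AML3, where 42 nuclear members were higher, 18 of 77 mitochondrial ribosomal protein genes were higher and 13 lower (median -0.01), 3 of 16 cycle genes higher and 2 lower, and 0 of 13 regulators higher and 5 lower. Over all genes 18.8% were higher and 16% lower there, so the ribosomal and cycle lists lay near the background. Cytosolic ribosomal protein genes had 53 of 82 lower and 2 higher in that comparison, and 60 of 83 lower and 1 higher in NOMO1, where 25.1% and 23.7% of all genes were. Myeloid markers moved too: with VTP-50469 on day 6, 4 of 10 were higher and 4 lower in OCI-AML3 and 9 higher and none lower in NOMO1, and the part of these shifts in the members' values was not tested.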

How the data were processed

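Poly(A) RNA-seq of 42 libraries was analysed from the deposited table of raw counts per gene. Per the submitters' processing notes, the authors used STAR 2.11a, featureCounts from Subread 2.0.6 and hg38; the header names GENCODE 30. Of 58870 rows, 1 with an empty cell was dropped, and 3 columns that match no labelled sample were not used.

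Genes were filtered (filterByExpr), scaled by TMM and tested with edgeR 4.0.16 (R 4.3.3; robust quasi-likelihood), per line over 7 groups and 21 libraries, and over 42 libraries for differences between lines. Adjusted p-values are Benjamini-Hochberg over all genes tested, with a threshold of 0.05; the SE is the absolute log2 fold change over the square root of F. CPM are TMM-scaled within a line. Fits were tested on simulated data. Alternatives included DESeq2 1.42.0. Exon overlaps came from GENCODE 29 by Ensembl ID (96 of 96 matched).

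Named genes were a list of core subunits and isoforms plus, per comparison and complex, the called members of smallest adjusted p in each direction whose replicates did not overlap at 5 CPM or more; fewer are printed. Members, lists and this rule were chosen with earlier results of these data known.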

Additional observations from a re-analysis of the deposited data

Results flagged for a closer look

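The 3 tests of a difference between the lines gave the values picked out here. The VTP-50469 effect on day 6 differed between NOMO1 and OCI-AML3 for 59 of 90 members, against 33.4% of all genes (edgeR interaction test, adjusted p under 0.05). The effect of the combination on day 6 differed for 47, against 34.9%, and the effect of adding selumetinib to VTP-50469 on day 6 for 13, against 20.6%, a smaller share of the members than of all genes. For VTP-50469, the NOMO1 effect minus the OCI-AML3 effect was -2.40 for NDUFA8, -1.15 for COX7A2, -0.95 for COX5B, -0.83 for UQCRQ, -0.63 for ATP5F1B and 1.19 for COX7A2L, all on the log2 scale. For the combination it was -1.40 for NDUFC1, -1.32 for NDUFAF8 and -0.90 for ATP5PF. These VTP-50469 and combination differences used DMSO day 6 in both lines, and DMSO day 3 was not tried for them.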

How the results depend on the processing

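Counts of called members were recomputed with DESeq2, other scalings, other filters, the replicate block, fits on the compared groups alone, the DMSO group of the other day and each library left out. The DMSO group of the other day was used only for treatments set against DMSO within a line. It was not used for comparisons between the lines. Of 170 recomputed counts other than those with a library left out, 164 stayed within 1.5 times the reported one. The exceptions were OCI-AML3 VTP-50469 day 3 with library totals (8), OCI-AML3 selumetinib with the compared groups alone (31), NOMO1 VTP-50469 day 3 with the compared groups alone (3) and with DMSO day 3 (69), and NOMO1 selumetinib with the compared groups alone (35) and with DMSO day 3 (75). For these the cause was not tested. With 1 library left out, the counts ranged from 2 to 5 for OCI-AML3 VTP-50469 day 3, from 29 to 45 on day 6, from 11 to 24 for NOMO1 VTP-50469 day 3, from 18 to 28 for NOMO1 combination against VTP-50469 day 6 and from 35 to 69 on day 3. The libraries behind a move of over 1.5 times were OCI-AML3 VTP-50469 day 3 replicate 2 (2) and DMSO day 6 replicate 1 (29), and NOMO1 DMSO day 6 replicate 2 (11), VTP-50469 day 6 replicate 2 (19) and combination day 6 replicate 3 (18). With library totals the median log2 fold change of all genes was 0.16 for the OCI-AML3 combination day 3, -0.11 for the NOMO1 combination day 6, -0.14 and -0.14 for the line differences in the VTP-50469 and combination effects. Against DMSO day 3, log2 fold changes reversed for ATP5F1B (0.26) and COX7A2L (-0.61) with VTP-50469 day 6 and for UQCRB with selumetinib (-0.82) and the combination day 6 (-0.63), all in NOMO1. Of 77 called gene results, 9 lost the call under at least 1 alternative and 4 reversed. Replicate numbers did not pair the libraries: same-number correlations of deviations were -0.0889 to 0.0411 in OCI-AML3 and -0.0756 to 0.0494 in NOMO1, and 6 and 4 of 21 libraries correlated best with their own number. With the replicate block the counts were 43 higher and 5 lower for OCI-AML3 VTP-50469 day 6 and 3 and 55 in NOMO1, and no count moved by over 1.5 times. The calls in OCI-AML3 of SDHB with VTP-50469 day 6 (edgeR adjusted p = 0.0604) and of UQCRB with selumetinib (0.053) were lost with the block.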
